A study of Mus musculus with 8 samples.

Results

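The epithelial sheet of the intestine is held together by cell junctions, and the RNAs of 31 cell junction genes were examined for binding by DDX5, a DEAD-box RNA helicase. They were taken as a list of genes, and counted on them were the eCLIPseq peaks that overlapped them on the coding strand in GENCODE M21 (GRCm38). In this assay RNA is cross-linked to protein by UV light, trimmed with RNase and immunoprecipitated (IP), and the reads in a peak are set against a size-matched input that skipped the IP. In all, 352 of 26879 peaks in 3 lists lay on these genes: the colon mAb list gave 224 of 16455, the colon rAb list 99 of 9146 and the small intestine 29 of 1278.

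All samples were intestinal epithelial cells (IECs) of C57BL/6 mice labelled wild type, taken by EDTA fractionation. The small intestine had 2 CLIP and 2 input samples from 8-week-old females, which the authors merged into 1 list by Irreproducible Discovery Rate. The colon had 1 CLIP and 1 input sample each for the antibodies named mAb and rAb, to which the labels gave the same catalogue number, and the file names mark each list as merged over replicates. The growth protocol of the colon samples named 120-day-old Apcfl/+ CDX2Cre mice, at odds with the genotype label and with the methods, which describe 2 wild-type mice. Each list thus stood for 1 measurement, no p-value could be given between lists, and tissue, sequencing protocol (single-end in colon, paired-end in small intestine) and peak selection cannot be told apart. Of the marker genes listed for each cell type, those of epithelium had a called peak for 7 of 7 genes in each colon list and 5 of 7 in the small intestine, and colonocyte markers for 7, 3 and 0 of 7 genes in mAb, rAb and small intestine. Stromal markers had a peak for 7, 5 and 0 of 10 genes in the same order, and small intestine enterocyte markers for 0, 0 and 7 of 9. T and B cell markers had 1, 1 and 0 of 8, and macrophage markers 1, 2 and 0 of 5. The small intestine list holds only peaks above 3 in log2 fold and −log10 p, so these counts are not alike between tissues. Above the same cutoffs, epithelial markers had 1, 0 and 5 genes, colonocyte markers 1, 0 and 0, and stromal markers 0, 0 and 0. The part of these cell types in the results was not tested.

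Tight junctions seal the space between neighbouring epithelial cells through claudins, occludin and immunoglobulin-family receptors, which are tied to actin by scaffold proteins. Adherens junctions hold cells together through cadherins bound to catenins, and desmosomes do so through desmosomal cadherins linked to keratin filaments by plakoglobin, plakophilins and plakins. The 31 genes fell into 15 of the tight junction, 4 of the adherens junction, 8 of the desmosome and 4 of adhesion, polarity and scaffold proteins (Epcam, Pard3, Shroom3 and Sdcbp).

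A peak with a log2 fold (IP over input) above 3 and a −log10 p above 3 is called a site. In the colon, 5 mAb sites and 4 rAb sites lay on cell junction genes, and the genes with sites in both lists were Cxadr and Sdcbp. Cxadr encodes the coxsackievirus and adenovirus receptor, an immunoglobulin-family protein of tight junctions. Sdcbp encodes syntenin-1, a PDZ scaffold that binds syndecans. On both genes the colon peaks met at a splice junction. In Cxadr (chromosome 16, plus strand) they ended at exon 3 of 7 and resumed at exon 4, across an intron of 4203 bases, and in Sdcbp (chromosome 4, plus strand) they ended at exon 4 of 9 and resumed at exon 5, across 3929 bases. The spliced stretches covered by the rAb sites are shown because they carry all rAb sites of the group and all mAb sites except the one on Shroom3. The upstream exon is in lower case and the downstream exon in capitals, read from GRCm38 at chr16:78329098-78329158 joined to chr16:78333362-78333398 for Cxadr and chr4:6381065-6381099 joined to chr4:6385029-6385096 for Sdcbp.
Cxadr: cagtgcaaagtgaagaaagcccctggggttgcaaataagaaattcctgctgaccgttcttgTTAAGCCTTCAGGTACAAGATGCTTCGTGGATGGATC
Sdcbp: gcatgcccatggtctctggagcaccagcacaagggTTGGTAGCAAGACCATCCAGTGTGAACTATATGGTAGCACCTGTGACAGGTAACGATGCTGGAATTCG

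The joined Cxadr stretch of 98 bases was found in 3 annotated transcripts and the Sdcbp stretch of 103 bases in 2, all of the same gene. Neither had another place in the genome at 90% identity over 80% of its length. For Sdcbp, exon 5 starts at 6385029 in 2 annotated transcripts and 3 bases earlier, at 6385026, in 4 others.

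On Cxadr, the exon 3 interval had a log2 fold of 3.09 in the mAb list (chr16:78329097-78329159), from 52 IP and 9 input reads. In the rAb list it was 4.42 (chr16:78329098-78329159), from 34 IP and 5 input reads. Both intervals ended 1 base past the exon, which was the commonest offset at exon ends in either list (54.9% of mAb and 53.7% of rAb intervals that ended within 3 bases of one). The exon 4 side was cut into adjoining intervals in the mAb list. The first (chr16:78333361-78333365) had a log2 fold of 3.51 from 54 IP and 7 input reads, and the second (chr16:78333366-78333388) 3.35 from 55 and 8. The next (chr16:78333389-78333395) fell just under the cutoff, at 2.92 from 41 and 8 reads. The rAb list held 1 interval there (chr16:78333359-78333398), with a log2 fold of 5.16 from 34 IP and 3 input reads. The exons on either side of the splice junction thus had nearly equal IP reads within each list. Adjoining intervals can hold the same reads, so they are not separate events.

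The other Cxadr peaks in colon were weaker or rested on few reads. The mAb list had 12 more called peaks on the gene, with log2 folds from −0.17 to 2.92, and the rAb list 5 more, from 0.92 to 3.65. The highest of these, in the 3′ UTR of the rAb list, came from 4 IP reads and 1 input read and had a −log10 p of 1.87. The 95% intervals of the log2 fold from read counts (exact, counting error only) were 2.06 to 4.30 for the mAb exon 3 site, 3.06 to 6.13 for the rAb exon 3 site and 3.49 to 7.50 for the rAb exon 4 site. The last 2 were the only peaks of the group in colon whose interval lay wholly above 3.

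On Sdcbp the intervals also met at a splice junction, but the upstream exon had fewer IP reads than the downstream exon in both lists. The exon 5 interval was a site in both lists, with a log2 fold of 3.09 in mAb (chr4:6385025-6385095, 46 IP and 8 input reads) and 3.98 in rAb (chr4:6385023-6385096, 35 and 7 reads). The exon 4 interval was a site in rAb, at 3.90 (chr4:6381065-6381100, 19 IP and 4 input reads), and not in mAb, at 2.51 (chr4:6381051-6381100, 27 and 7 reads). The intervals of the log2 fold overlapped between the lists at both exons, 1.28 to 3.95 against 2.31 to 5.92 at exon 4 and 1.99 to 4.38 against 2.78 to 5.39 at exon 5. Elsewhere on Sdcbp, 4 mAb peaks ran from −0.02 to 2.15 and 3 rAb peaks from 0.65 to 1.65.

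**Figure D1:**
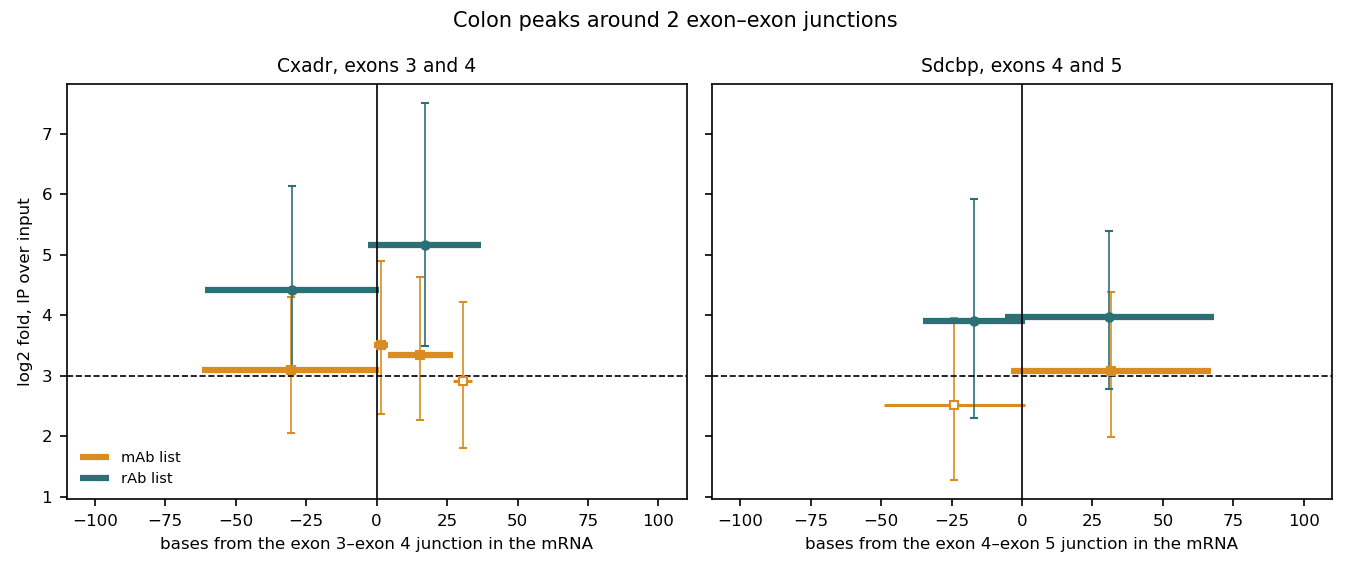
Colon peaks of Cxadr (left) and Sdcbp (right) around the splice junction that they share, with position in the mRNA in bases on the x axis (0 is the junction of the main annotated transcript) and log2 fold of IP over input on the y axis. Horizontal bars span each interval, thick for sites; points with vertical 95% intervals (counting error) are filled for sites, and the dashed line is the cutoff of 3. The rAb bars lie above the mAb bars on both genes, and the intervals of each pair overlap.

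Peaks that met across a splice junction were not particular to these genes. The mAb list held 1203 such pairs, each interval ending or starting within 3 bases of the same annotated splice junction, and the rAb list 804. Both members of a pair were sites in 5 mAb pairs and 11 rAb pairs. Of the cell junction genes, 11 mAb pairs and 13 rAb pairs were found, and both intervals were sites in 1 (Cxadr) and 2 (Cxadr and Sdcbp). By peak, 9.45% of all mAb sites and 21.4% of all rAb sites belonged to such a pair, against 3 of 5 and 4 of 4 sites on cell junction genes. The counts are small and nothing was tested on them.

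The other colon site was on Shroom3, which encodes an actin-binding protein that drives apical constriction. It lay in the second intron (chr5:92902474-92902537, mAb list), at 3.37 on the log2 scale and 3.85 for −log10 p, from 14 IP and 2 input reads. The 95% interval of its log2 fold was 1.25 to 6.55. Its sequence had 49 other places in the genome at 90% identity over 80% of its length and is shown for that reason.
Shroom3: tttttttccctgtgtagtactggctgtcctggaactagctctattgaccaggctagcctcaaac

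A −log10 p of 5 in place of 3 left this site out. A coding peak of Shroom3 (chr5:92942450-92942520) had the highest log2 fold on any cell junction gene in the mAb list, 3.56, with a −log10 p of 2.39 from 8 IP reads and 1 input read. In the rAb list, 3 peaks on Shroom3 ran from 1.65 to 2.07, all in coding sequence.

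Sites were compared with the called peaks they came from. On cell junction genes, 5 of 224 mAb peaks were sites (2.23%, exact 95% interval 0.729 to 5.13), where 1.22% of all mAb peaks were. In the rAb list 4 of 99 were sites (4.04%, 1.11 to 10.02), where 1.99% of all rAb peaks were. Both backgrounds by peak lay within the intervals. These intervals treat peaks as independent, which peaks of a gene are not. Joined across splice junctions and within 10 bases, the sites came to 3 in mAb and 2 in rAb. Counted by gene, 3 of 24 cell junction genes with a called mAb peak had a site (12.5%, 2.66 to 32.4), beside 2.57% of protein-coding genes with a called peak, and in rAb 2 of 20 did (10%, 1.23 to 31.7), beside 2.85%. The background by gene lay just below the interval in mAb and within it in rAb. The share by gene rests on Cxadr and Sdcbp in both lists and on Shroom3 in mAb. In the small intestine 100% of listed peaks were sites, since the list held no others, and 11 of the 31 genes had at least 1 (35.5%, 19.2 to 54.6), beside 2% of all protein-coding genes. Of the 24 with a called colon peak, 11 did (45.8%, 25.6 to 67.2), beside 6.57% of protein-coding genes with one. The genes were chosen with earlier results of these data known and were not matched on expression or length. These shares are therefore a description, and an excess over the background is not evidence about the group.

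The classes were compared within each list. In the mAb list, tight junction genes had 68 called peaks with 3 sites (4.41%, 0.919 to 12.4), all on Cxadr, and the adhesion, polarity and scaffold genes 37 with 2 sites (5.41%, 0.661 to 18.2). Adherens junction genes had the most called peaks, 86, and 0 sites, with an upper limit of 4.2%. Desmosome genes had 33 called peaks and 0 sites, which allows up to 10.6%. In the rAb list, 2 of 27 tight junction peaks were sites (7.41%, 0.910 to 24.3) and 2 of 24 adhesion, polarity and scaffold peaks (8.33%, 1.03 to 27.0). Adherens junction genes had 0 of 28 (up to 12.3%) and desmosome genes 0 of 20 (up to 16.8%). The intervals of the classes overlapped in both lists, so the colon lists do not separate them. Peaks of a gene are not independent, and 41 of the 86 adherens junction peaks in mAb were on Cdh1, so these limits may be too narrow.

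In the small intestine, every class had sites, and of all protein-coding genes 2% had one. All 4 adherens junction genes had a site, and so did 4 of 15 tight junction genes, 1 of 8 desmosome genes and 2 of 4 of the adhesion, polarity and scaffold genes. By peak these were 9, 9, 2 and 9 sites. The sites on the adherens junction gene Ctnnd1 also lay within another gene. With peaks on no other gene, 7 adherens junction sites and 10 cell junction genes with a site remained. The median log2 fold was 4.22 in the adherens junction (range 3.24 to 7.08), 4.35 in the tight junction (3.44 to 5.29), 4.83 in the desmosome (4.28 to 5.37) and 4.25 in the adhesion, polarity and scaffold genes (3.03 to 6.49). Over all 29 sites it was 4.28, next to 4.29 over all 1278 sites of the list.

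**Figure D2:**
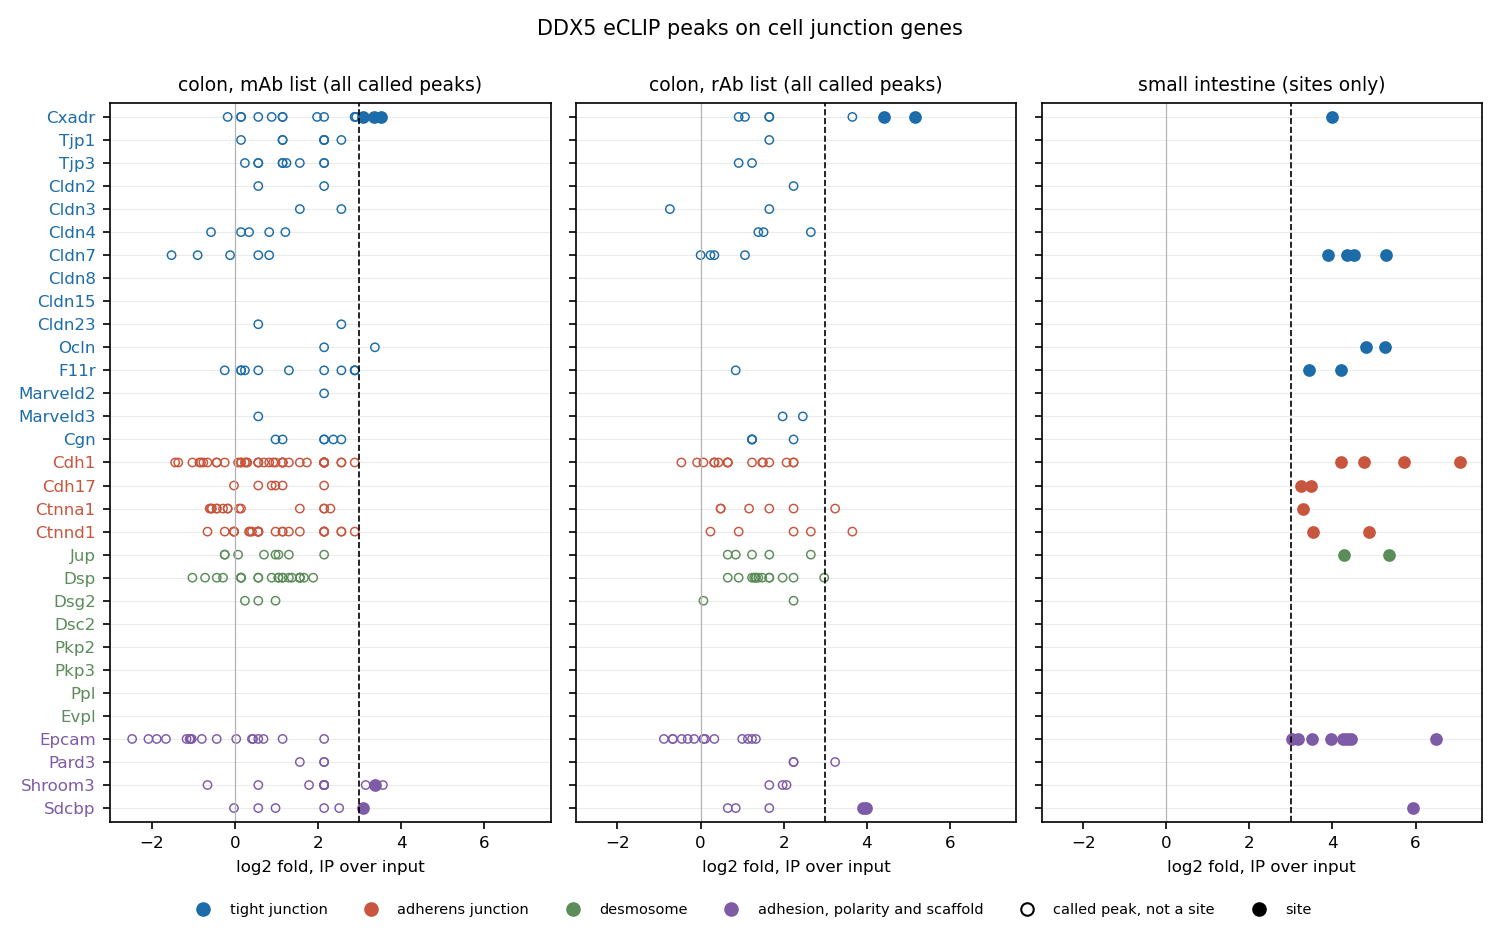
Log2 fold of IP over input (x axis) of each called peak on each of the 31 cell junction genes (y axis), in the colon mAb, colon rAb and small intestine lists. Filled points are sites, open points are called peaks that were not, colours mark the classes and the dashed line is the log2 fold cutoff of 3; filled colon points are found on Cxadr, Sdcbp and Shroom3, and 7 genes have no point in any list.

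Tight junction genes in the small intestine had sites on Cldn7, F11r, Ocln and Cxadr. Cldn7 encodes a claudin of the basolateral membrane of intestinal epithelium. It had 1 coding site in exon 1 (chr11:69965972-69966014, log2 fold 3.90) and 3 sites in intron 1, at chr11:69966196-69966234 (5.29), chr11:69966259-69966325 (4.52) and chr11:69966765-69966797 (4.35). In colon, Cldn7 had 5 mAb peaks from −1.52 to 0.83 and 4 rAb peaks from 0.0021 to 1.07. The small intestine list holds only log2 folds above 3, so these ranges cannot be compared with its sites. F11r, which encodes the junctional adhesion molecule A, had a coding site in exon 1 (chr1:171437645-171437693, 3.44) and a site in intron 1 (chr1:171437721-171437782, 4.21).

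Ocln encodes occludin, a membrane protein of the tight junction strand. It had a 5′ UTR site (chr13:100552455-100552500, 4.81) and a site in intron 1 (chr13:100551957-100552025, 5.26). Its only colon peaks were 2 mAb peaks at 2.15 and 3.37, the latter from 7 IP reads and 1 input read. Cxadr had 1 site, in intron 1 (chr16:78302040-78302196, 3.99, −log10 p of 11.9), 157 bases long and 165 bases past exon 1. No colon site lay there, as the colon sites were in exons 3 and 4. A pair of called mAb peaks lay under it, and no rAb peak did. They had 2.89 (−0.27 to 8.45) from 5 IP reads and 1 input read and 1.98 (−0.08 to 4.53) from 8 and 3. Both intervals include 3, so these peaks cannot be placed above or below the cutoff. Over the tight junction genes, all 9 small intestine sites were in the first exon or first intron, beside 45.3% of all sites on protein-coding genes. They lay on 4 genes, with 4 sites on Cldn7, and the 2 desmosome sites were in a first intron too.

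Adherens junction genes had their strongest site on Cdh1, which encodes E-cadherin. It lay in intron 2 (chr8:106605886-106605932), where the log2 fold reached 7.08 (−log10 p of 14.2), and ranked 16 of 1278 by log2 fold. Another site in that intron (chr8:106606569-106606638) had 4.75, and a pair of adjoining 3′ UTR sites had 5.72 (chr8:106670095-106670151) and 4.22 (chr8:106670152-106670202). In colon, Cdh1 had the most called peaks of any cell junction gene, 41 in mAb and 17 in rAb, and none was a site. Reads were traced for 28 of the 41 mAb peaks. Of these, the one with the most IP reads, 25 over 35 input reads, had a log2 fold of 0.08 with an interval of −0.72 to 0.86.

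Ctnnd1 encodes p120-catenin, which binds the cadherin tail. It had a site in intron 1 (chr2:84649966-84650010, 4.87) and another in the 5′ UTR (chr2:84650466-84650542, 3.53), and both also lay within the overlapping gene Gm28635, from which they cannot be told apart. Ctnna1 encodes αE-catenin, which couples the cadherin complex to actin, and had 1 site in intron 1 (chr18:35119035-35119121, 3.29). Cdh17, the liver-intestine cadherin, had a coding site in exon 13 of 18 (chr4:11803961-11804034, 3.49) and a 3′ UTR site (chr4:11817567-11817630, 3.24). In colon, 25 mAb and 5 rAb peaks were called on Ctnnd1, 14 and 6 on Ctnna1, and 6 mAb and no rAb peaks on Cdh17. Most of the mAb peaks on Ctnnd1 lay within Gm28635 too. The best colon log2 fold was 3.65 for Ctnnd1, from 4 IP reads and 1 input read, 3.24 for Ctnna1, from 3 and 1, and 2.15 for Cdh17, from 3 and 1.

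The desmosome was represented by Jup alone, which encodes plakoglobin and is shared with the adherens junction. It had 2 sites in intron 1, at chr11:100395807-100395847 (5.37) and chr11:100396896-100396956 (4.28). In colon no peak overlapped these sites, although 1 mAb peak lay between them in intron 1 (chr11:100396374-100396420), at 2.15 from 3 IP reads and 1 input read. Coding sequence held 5 of 8 mAb and 5 of 5 rAb peaks. The best colon fold, in rAb (chr11:100379534-100379617), was just below the log2 fold cutoff, at 2.65 with a −log10 p of 3.23 from 10 IP and 5 input reads. The overlapping mAb peak had 0.70 from 11 and 10 reads, and the intervals, 0.97 to 4.55 and −0.67 to 2.09, overlapped.

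Epcam, an epithelial adhesion molecule that associates with claudin-7, had the most sites of any cell junction gene in the small intestine, 8. A pair adjoined in intron 2, at chr17:87636924-87636987 (3.97) and chr17:87636988-87637103 (3.51). Another crossed the end of exon 8 by 6 bases (chr17:87646303-87646346, 3.18), and 5 lay in the last exon, the highest of them at chr17:87650897-87650924 with 6.49 and a −log10 p of 11.4. The other 4 had 3.03 (chr17:87650434-87650542), 4.25 (chr17:87650543-87650594), 4.34 (chr17:87650821-87650863) and 4.46 (chr17:87651014-87651063). The last was the site with the highest −log10 p of the group, 39.2. Sdcbp had 1 site, in the 3′ UTR (chr4:6395216-6395272, 5.94), far from exons 4 and 5, and no colon peak overlapped it.

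The bound strand at the site with the highest log2 fold of 4 genes is shown, to set intronic sites (lower case) beside an exonic one (capitals). The Epcam stretch is 28 bases of 3′ UTR.
Cdh1 intron 2: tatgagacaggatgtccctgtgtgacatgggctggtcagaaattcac
Cldn7 intron 1: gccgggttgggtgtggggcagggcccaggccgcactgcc
Jup intron 1: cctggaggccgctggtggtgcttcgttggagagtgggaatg
Epcam 3′ UTR: TAAAGTGAGTTTCTAAGTTTGTTTGAAT

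The Epcam stretch had 25.0% G and C and the Cldn7 stretch 79.5%. Over the 14 sites in first exons or introns the median share was 63.9% (range 53.1 to 79.5), and over the 9 sites in last exons 44.2% (25.0 to 58.0). The median over all sites of the list was 59.7%. Of 37 sites of at least 20 bases on cell junction genes in the 3 lists, 33 had no other place in the genome at 90% identity over 80% of their length. The others were the Shroom3 site, the 23-base Cxadr interval of exon 4 (7 places), this Epcam stretch (3) and the Sdcbp 3′ UTR site (1). No site matched a ribosomal RNA of the reference annotation over 20 bases.

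Positions were counted by exon number in the main annotated transcript. Small intestine sites in the first exon or first intron were found on 7 genes (Cxadr, Cldn7, Ocln, F11r, Ctnna1, Ctnnd1 and Jup), and sites in the last exon on the other 4 (Cdh1, Cdh17, Epcam and Sdcbp). No cell junction gene had both, and over all protein-coding genes with a site 21 of 430 did (4.88%). Only genes with at least 2 sites can have both, which 0 of 8 cell junction genes did (up to 36.9%), beside 21 of 250 (8.4%). Of the 430 genes, 56.7% had a site in the first exon or intron and 18.8% one in the last exon. By site, the first exon or intron held 14 of 29 (48.3%, 29.4 to 67.5), beside 45.3% of all sites on protein-coding genes, and the last exon 9 of 29 (interval 15.3% to 50.8%), beside 14.5%. The remaining 6 sites were those in intron 2 of Cdh1 and Epcam, exon 8 of Epcam and exon 13 of Cdh17. Within 2 kb of the gene start lay 15 of 29 sites (51.7%), beside 41.1% of all sites of the list. The sites in intron 2 of Epcam were among these, at 977 and 1067 bases from the gene start, nearer than some in intron 1 of Cldn7 (2002) and Jup (1936). By distance, Epcam therefore had sites at both ends. The 3′ UTR held 8 of 29 (27.6%, 12.7 to 47.2), beside 8.29% of all sites, and 5 of these 8 were on Epcam and Sdcbp.

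**Figure D3:**
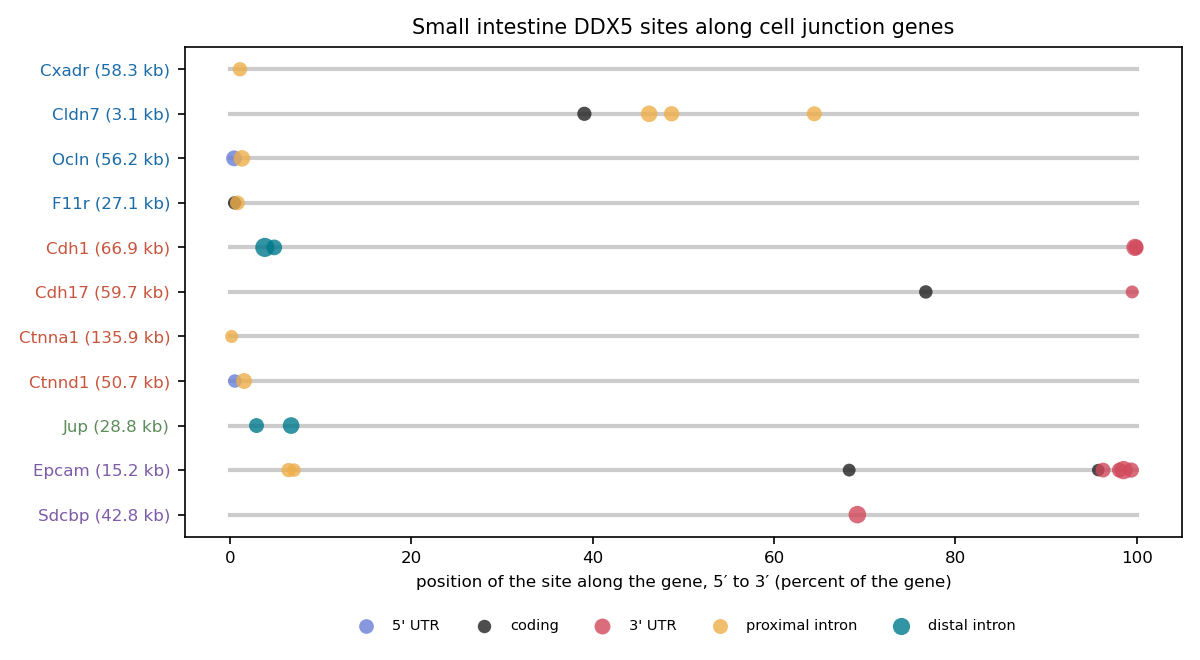
Position of the 29 small intestine sites along the 11 cell junction genes that had one, as percent of the gene from its 5′ to its 3′ end (x axis), with gene length in kb beside each name. Each point is a site, coloured by annotated region and sized by log2 fold; Cxadr, Ocln, F11r, Ctnna1, Ctnnd1 and Jup have their sites near the 5′ end, and the last-exon sites of Cdh1, Cdh17 and Epcam lie at the 3′ end.

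Small intestine sites were then set against the colon peaks at the same place. These places were chosen for a log2 fold above 3 in the small intestine. Lower folds in colon are therefore partly fixed by that choice and are given as a description. Of the 29 sites, 14 overlapped a called mAb peak (48.3%, 29.4 to 67.5), where 35.8% of all small intestine sites did. With rAb it was 5 of 29 (17.2%, 5.85 to 35.8), where 19.3% did. None of the 13 mAb (up to 24.7%) and 4 rAb peaks (up to 60.2%) under these sites was a site in colon. Of all called peaks, 1.22% in mAb and 1.99% in rAb were sites, so few would be found among so few peaks. Of the 13, 5 had a log2 fold below 0, where 83.9% of all mAb peaks were above 0. The mAb folds there ran from −1.09 to 2.89 with a median of 0.69. Epcam shows this with the most reads. At its last-exon sites of 3.03 and 4.25, the rAb list had 24 IP over 70 input reads, a log2 fold of 0.11 (−0.62 to 0.80), and the mAb list −1.04. At the site of 4.46, mAb had 0.69 (−0.62 to 2.01) from 12 and 11 reads and rAb 0.33 (−1.32 to 1.78) from 6 and 15.

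On Ctnna1, the mAb peak under the intron 1 site had 2.30 (0.34 to 4.80) from 10 and 3 reads. On Cdh1, the mAb peak under the strongest site had 1.56 (−1.24 to 5.03) from 4 and 2 reads. Both intervals include 3, so the depth in colon does not place these peaks above or below the cutoff. The Ctnna1 interval includes the small intestine log2 fold of 3.29, and the Cdh1 interval ends below the 7.08 of the small intestine. That value was the highest of the group there, so the gap on Cdh1 was picked at an extreme. Folds were computed by the authors per list and against different inputs, and no difference between tissues was tested.

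Colon peaks of the other members, and of F11r and Epcam, held no site. Among tight junction genes, Tjp1 and Tjp3, scaffolds of the ZO family, had 7 and 9 mAb peaks (best log2 fold 2.56 and 2.15) and 1 and 2 rAb peaks (1.65 and 1.24). Cgn, which encodes cingulin, had 6 and 4 (best 2.56 and 2.24). The claudins Cldn4, Cldn2 and Cldn3 had 5, 2 and 2 mAb peaks (best 1.22, 2.15 and 2.56) and 3, 1 and 2 rAb peaks (best 2.65, 2.24 and 1.65), and Cldn23 had 2 mAb peaks (best 2.56) and none in rAb. The Cldn4 rAb peak of 2.65 rested on 10 IP and 5 input reads in the 3′ UTR, with a −log10 p of 3.23. Marveld2, which encodes tricellulin, had 1 mAb peak (2.15), and its relative Marveld3 had 1 mAb (0.56) and 2 rAb peaks (best 2.46). On F11r, colon peaks numbered 11 in mAb (best 2.89) and 1 in rAb (0.85).

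In the desmosome, Dsp, which encodes desmoplakin, had 22 mAb and 13 rAb peaks and no listed small intestine peak. Its best log2 folds were 1.89 and 2.98, and its peaks were in coding sequence for 21 of 22 and 12 of 13. The desmosomal cadherin Dsg2 had 3 and 2 peaks (best 0.98 and 2.24). Pard3, a polarity scaffold, had 3 and 3 (best 2.15 and 3.24, the latter from 3 IP reads and 1 input read), and Epcam 17 and 13 (best 2.15 and 1.33). No peak in any list lay on Cldn8, Cldn15, Dsc2, Pkp2, Pkp3, Ppl or Evpl, 5 of which are desmosome genes. Only 5828 of 21924 protein-coding genes had a called peak in a colon list, so lacking one is common and says nothing of the class.

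Where reads could be traced, most of these called peaks rested on few. The 62 mAb and 12 rAb peaks of the group with a −log10 p of 0 were not traced, so their depth is unknown. Among cell junction genes the median was 4 IP reads in each list over 157 mAb and 86 rAb peaks whose reads could be traced, beside 3 over all traced peaks of either list. Input was deeper on these genes in rAb, with a median of 5 reads against 2 over all peaks. A peak of 3 IP reads over 1 input read made up 16.1% of mAb and 2.02% of rAb peaks of the group, and 24.8% and 24.4% of all peaks. The median log2 fold of called peaks was 0.98 in mAb (0.56 to 1.15) beside 1.15 over all peaks, and 1.24 in rAb (1.07 to 1.52) beside 2.24. In 27 mAb and 27 rAb peaks the interval of the log2 fold lay wholly below 3, so these were deep enough to be placed under the cutoff. Of the mAb ones, 7 were on Cdh1, 6 on Ctnnd1 and 4 on Epcam, and of the rAb ones, 8 on Cdh1 and 5 on Epcam.

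**Figure D4:**
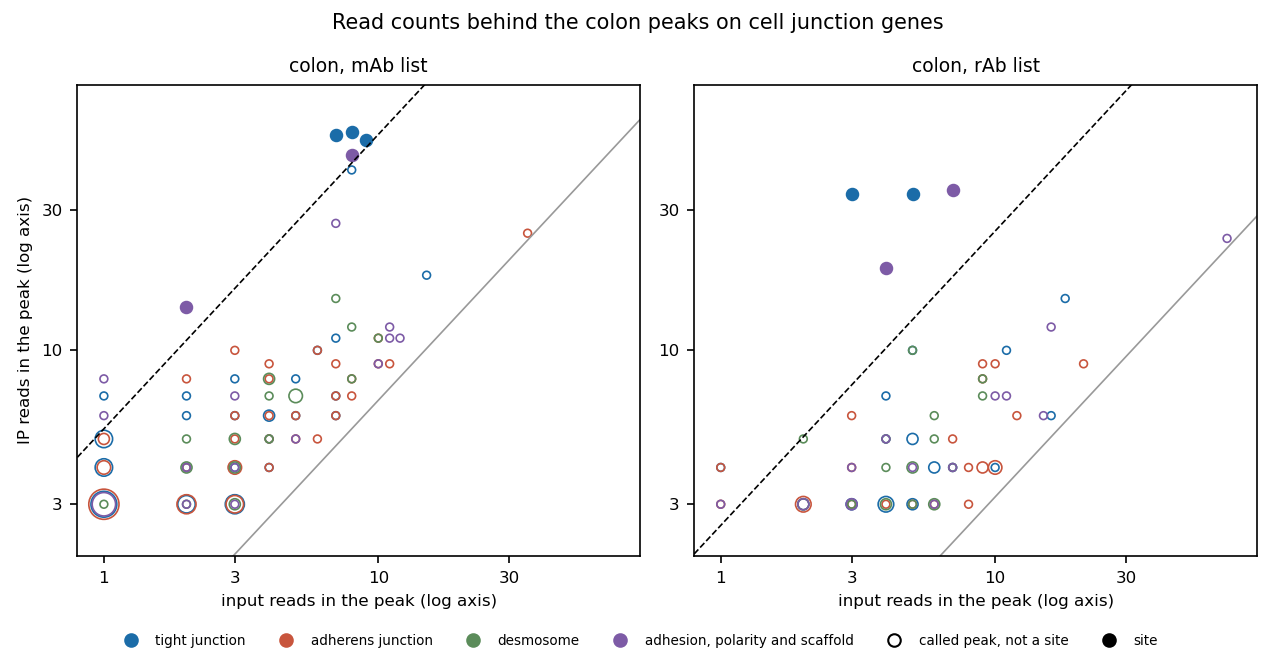
IP reads (y axis, log scale) against input reads (x axis, log scale) traced for the colon peaks of cell junction genes in the mAb (left) and rAb (right) lists; filled points are sites, colours mark the classes and the area of open points grows with the number of peaks at that place. The solid line marks equal depth-normalized reads and the dashed line a log2 fold of 3; the filled points of Cxadr and Sdcbp have 19 to 55 IP reads, above nearly all other peaks of the group.

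The colon lists were compared on the same genes. Called peaks were found on 24 of the 31 genes in mAb, on 20 in rAb and on 20 in both lists. Of 21924 protein-coding genes, 4950 had one in mAb and 3408 in rAb, and the groups were not matched on expression. Of the 224 mAb peaks, 50 overlapped a rAb peak (22.3%), beside 18.2% of all mAb peaks, and of the 99 rAb peaks, 45 overlapped a mAb peak (45.5%), beside 32.0%. Of the sites, 4 of 5 mAb sites overlapped a rAb site and 3 of 4 rAb sites a mAb site, all on Cxadr and Sdcbp. There were 51 overlapping pairs of peaks, 34 of them with traced reads on both sides. In those 34 the intervals of the log2 fold overlapped in 34, and rAb had the higher fold in 22. The rest had no interval on at least 1 side, so their overlap could not be judged. Their mAb log2 folds were mostly below 0, and in most of them rAb again had the higher fold. The pairs are not independent, because some share a peak.

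Annotated regions of cell junction peaks were set beside those of their lists, which also cover noncoding genes and so are not a like set. In colon, noncoding exons held 0 of 224 mAb peaks (up to 1.63%), beside 5.97% of all. In rAb they held 0 of 99 (up to 3.66%), beside 7.8%. Coding sequence held 56.7% of mAb peaks (49.9 to 63.3), beside 49.8% of all, and 63.6% of rAb peaks (53.4 to 73.1), beside 55.5%. Introns held 24.1% of mAb peaks, beside 25.1%, and 9.09% of rAb peaks, beside 15.7%. In the small intestine, coding sequence held 5 of 29 sites (17.2%, 5.85 to 35.8), beside 31.7% of all sites, and introns 14 of 29 (48.3%, 29.4 to 67.5), beside 36.7%. Among classes, desmosome peaks were coding in 84.8% of mAb (68.1 to 94.9) and 18 of 20 rAb peaks (interval 68.3% to 98.8%), and tight junction peaks in 51.5% (39.0 to 63.8) and 44.4% (25.5 to 64.7). The desmosome share came mostly from Dsp. The classes were not tested against each other.

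**Figure D5:**
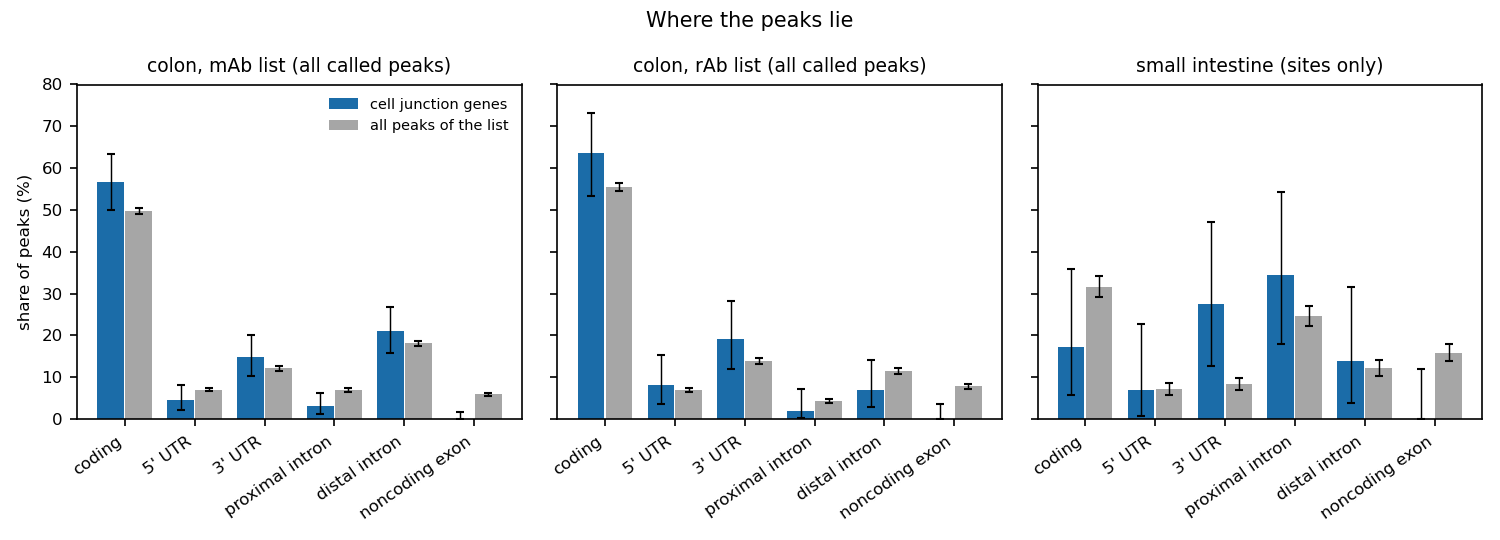
Share of peaks (y axis, percent) in each annotated region (x axis) for cell junction genes (blue) and for all peaks of the list (grey) in the colon mAb, colon rAb and small intestine lists, with exact 95% intervals that cover counting error only. In the small intestine the 3′ UTR bar stands at 27.6% for cell junction genes and 8.29% for all sites.

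A further 56 annotated junction genes outside the group were counted in the same way. They had 169 mAb peaks on 27 genes with 2 sites (1.18%, 0.144 to 4.21), on Ctnnb1 (5.24) and Plec (3.37). In rAb they had 81 peaks on 19 genes and 0 sites, which allows up to 4.45%, with a highest log2 fold of 3.65. In the small intestine they had 26 sites on 8 genes, 14 of them on Ctnnb1, which encodes β-catenin, the partner of E-cadherin and p120-catenin in the adherens junction. Its sites reached a log2 fold of 6.30 and lay in the 5′ UTR, in introns and in the 3′ UTR. The others were on Plec (3 sites), Magi3 (3), Magi1 (2) and, with 1 each, Plekha7, Mpp5, Pkp4 and Nectin3, with best folds from 3.23 on Nectin3 to 5.08 on Magi1.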

How the data were processed

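DDX5 eCLIPseq peaks came from 8 mouse samples (4 CLIP, 4 input). Per the labels and methods, the authors trimmed reads (cutadapt 1.9.1), aligned them with STAR 2.4.0i to mm10 (GRCm38) and used CLIPper to call peaks in the IP library. The deposited log2 fold is depth-normalized IP reads over input reads in the peak, and the deposited −log10 p tests those reads, with 400 as its cap. The small intestine list, merged over replicates, held only peaks above 3 in both values. Another table, with 2 value columns, could be tied to no labelled sample and was left out.

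Peaks were placed on GENCODE M21 genes by an overlap of at least 1 base on the same strand, and on regions in the order coding, 5′ UTR, 3′ UTR, noncoding exon, proximal intron (no more than 500 bases from an exon) and distal intron. Exon and intron numbers are those of 1 main transcript per gene. Coordinates count from 1. The genes, classes, marker lists and cutoffs were chosen with earlier results of these data known. All 31 genes and every site on them are given, and other junction genes are named where they had a site.

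The files gave no read counts or library totals. For the colon, the most frequent log2 fold was taken to be 3 IP over 1 input reads, and the smallest whole reads that gave the log2 fold and, within 1%, the −log10 p were sought. This traced 99.2% of 13011 mAb and 99.6% of 8282 rAb peaks with a −log10 p above 0 and below the cap, 157 and 86 of them on cell junction genes (tested on simulated peaks). The ratio of input to IP reads came to 1.48 for mAb and 3.15 for rAb. An input of 1 read may stand for 0. Shares and traced log2 folds have exact 95% intervals (Clopper-Pearson), which cover counting error only, and medians have intervals from order statistics. With 1 list per group, no test between lists or classes was made. Python 3.11.15, scipy 1.17.1 and BLAST+ 2.17.0 were used. Alternatives were stricter and looser cutoffs, p-values adjusted over the list (Benjamini-Hochberg), joined intervals, other rules for gene and region, and other class members.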

Additional observations from a re-analysis of the deposited data

How the results depend on the processing

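Alternatives were run for the counts of sites, of genes with a site and of sites per class, the share of peaks that were sites, the coding share, the median log2 fold and the mAb peaks that overlapped rAb. Other positions and overlaps had none. Of 172 recomputed values, 145 stayed within 1.5 times the count or within the 95% interval, and 27 moved. Some of the 145 could not move. A count of 0 stays 0 under a stricter cutoff, and the small intestine list held only sites. The tally is therefore not a measure of stability. A log2 fold of 4 in place of 3 moved most. It left 0 mAb sites on 0 genes (0 in the tight junction and 0 in the adhesion, polarity and scaffold genes, a share of 0%), 2 rAb sites on 1 gene (Cxadr, with 0 left in the adhesion, polarity and scaffold genes) and 18 small intestine sites (62.1% of 29, beside 60.9% of all), 5 of them in the adherens junction and 5 in the adhesion, polarity and scaffold genes. A log2 fold of 1 gave 4 rAb genes with a site and 1 desmosome site in rAb, on Jup. With a −log10 p of 5, the adhesion, polarity and scaffold genes kept 1 mAb site. With Jup counted in the adherens junction, the desmosome had 0 small intestine sites. Intervals joined across splice junctions and within 10 bases, an alternative chosen after seeing the data, gave 3 mAb and 2 rAb sites.

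Coding sequence held 80% of the 5 mAb sites on these genes (28.4 to 99.5), beside 23.4% of all mAb sites. In rAb it held 100% of the 4 sites (39.8 to 100), beside 46.2% of all. The coding sites all lay at the splice junctions of Cxadr and Sdcbp, so these shares rest on 2 places and show no preference of the group. The median log2 fold over the best peak of each gene became 5.26 in the small intestine, 2.22 in mAb and 2.24 in rAb, and 1.30 in mAb and 2.65 in rAb over peaks with at least 10 IP reads. Of mAb peaks, 32 overlapped a rAb peak by 50% of both, and 4 did among sites. The small intestine list holds no replicate values and no peaks under the cutoff, so neither the leave-one-out fits nor a log2 fold of 1 were run on it. No paired analysis was possible because replicate numbers exist for small intestine libraries alone, and these had been merged. Depth limits the colon lists, where a median of 4 IP reads leaves most traced folds with intervals that include both 0 and 3. Reads of the small intestine were not traced.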
